A study of Mus musculus with 4 samples.

Results

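The 8 genes examined encode transcription factors of natural killer (NK) cell maturation and the partners that act with or against them: Zeb2, Zeb1, Prdm1, Id2, Id3, Nfil3, Tcf3 and Tcf12. Chromatin accessibility was measured by ATAC-seq, in which a transposase cuts and tags open DNA. The cells were cultured splenic NK cells of wild-type (WT) C57BL/6 mice, kept for 72 h in interleukin-15 (IL-15). A high dose (HD IL-15) was used for 2 samples and a low dose (LD IL-15) for 2, and the labels give neither concentration. All 4 samples thus shared strain, genotype, culture and time, and no sample without IL-15 is among them. An accessible region counted for a gene when no other protein-coding gene had its span nearer to the region. By this rule, 236 of the 91266 deposited regions, or 0.259%, belonged to the 8 genes. The deposited tables hold positions only: the authors' list of all regions, and their lists of 3845 regions up and 1275 regions down between the doses. Which dose was the reference is not given in the sources used here, so the lists keep the names up and down. The number of regions, their position, width and list membership are therefore the data. No region has a value per sample, a fold change or an error, and no test between doses could be made. Regions were found near Eomes (31) and Tbx21 (11), the T-box factors of NK cells, but they carry no level, and the cell type label could not be checked further.

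These factors act at successive steps. Nfil3 is needed early, for the first commitment to the NK lineage. E proteins, among them E2A (Tcf3) and HEB (Tcf12), bind DNA at E-boxes and promote B and T cell fates. The ID proteins Id2 and Id3 pair with E proteins and keep them off DNA, and Id2 is required for NK cells to mature. Zeb2 is induced by T-bet and drives the last step of NK maturation, while Zeb1, its paralog, often acts in the opposite sense in T cells. Both repress transcription through E-boxes. Prdm1 encodes Blimp-1, a repressor that drives terminal differentiation of lymphocytes and also restrains NK cell proliferation. IL-15 signals through STAT5 and supports the survival and maturation of NK cells.

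The 10 listed regions of these genes were spread over Zeb2, Prdm1 and Id2. Of the 236 regions, 3 were in the up list (1.27%, 95% Wilson interval 0.433 to 3.67%) and 7 in the down list (2.97%, 1.44 to 5.99%). Over all regions of the series, 4.21% were up and 1.4% were down. The intervals cover the counting of regions only, and neighbouring regions are not independent. Zeb2 and Id2 had 3 down regions each and no up region. Prdm1 had 3 up regions and 1 down region. Zeb1, Id3, Nfil3, Tcf3 and Tcf12 had 57 regions between them and 0 in either list. At least 1 down region was thus found at 3 of the 8 genes, against 5.4% of the 16384 protein-coding genes that had any region. An up region was found at 1 of the 8, against 16.1% of those genes. Prdm1 alone had both, as did 1.36% of genes. These shares of genes are not like for like, since a gene with many regions has more chances to be listed, and the median gene had 3 regions.

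The promoters of the 3 genes with listed regions are shown because each was overlapped by an accessible region in neither list. At Zeb2 that region ended at chr2:45117569, so the part of the printed stretch farther upstream lay outside it. The 250 bases before the annotated start are printed 5′ to 3′ from RefSeq, build GRCm38.p6, with E-boxes (CANNTG, either strand) in capitals. All 3 genes lie on the minus strand, and the stretches are chr2:45117443-45117692 for Zeb2, chr10:44458749-44458998 for Prdm1 and chr12:25096093-25096342 for Id2.
Zeb2: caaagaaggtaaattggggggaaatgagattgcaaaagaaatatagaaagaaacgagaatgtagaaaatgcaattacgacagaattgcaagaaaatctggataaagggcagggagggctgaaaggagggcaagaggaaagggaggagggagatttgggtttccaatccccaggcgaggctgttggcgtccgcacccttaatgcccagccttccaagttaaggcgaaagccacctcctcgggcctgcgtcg
Prdm1: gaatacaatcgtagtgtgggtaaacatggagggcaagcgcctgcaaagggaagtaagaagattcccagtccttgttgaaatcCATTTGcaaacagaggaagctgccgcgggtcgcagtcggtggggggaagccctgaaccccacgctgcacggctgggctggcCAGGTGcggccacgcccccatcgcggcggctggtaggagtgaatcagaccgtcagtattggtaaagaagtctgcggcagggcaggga
Id2: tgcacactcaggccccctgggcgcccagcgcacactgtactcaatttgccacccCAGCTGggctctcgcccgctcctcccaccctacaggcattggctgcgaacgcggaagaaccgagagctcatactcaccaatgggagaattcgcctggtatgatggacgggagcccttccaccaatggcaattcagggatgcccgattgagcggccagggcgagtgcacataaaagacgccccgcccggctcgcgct

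The Zeb2 stretch holds 0 E-boxes, the Id2 stretch 1 and the Prdm1 stretch 2. In the Prdm1 promoter the box CAGGTG begins 87 bases before the start, and CATTTG begins 168 bases before it. CAGGTG is a form bound by ZEB factors, but E proteins bind at E-boxes too, and the letters do not tell them apart. In Id2, CAGCTG begins 196 bases before the start. These are matches of letters and not measured binding sites. Promoter windows of 300 bases (250 before and 50 after a start) were tabulated for 7 of the 8 genes, 12 windows in all, and Zeb1 had no entry. An E-box was present in 7 of the 12 windows, against 72.3% of the 32851 windows of all genes. CAGGTG or its reverse complement was present in 1 of the 12, against 20.2%. The STAT motif TTCNNNGAA was found in 2 windows, against 8.3%, and GAAAGT, a part of the motif bound by Blimp-1, in 2, against 14.3%. Both motifs lay in the same pair of overlapping windows of Zeb2. The NFIL3 motifs TTACNTAA and TTATGTAA (2.32% of all windows) and the T-box AGGTGTGA (1.28%) were in 0 of the 12. All motifs were sought on both strands, and CAGGTG is itself an E-box.

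An accessible region overlapped 11 of the 12 windows, and each such region was unlisted. Among 21262 promoter windows of protein-coding genes, 54.0% were overlapped by a region. Of the overlapped windows, 0.636% met an up region and 0.209% a down region, so an unlisted promoter was the usual case. Coverage was complete, at all 300 bases, for the windows of Prdm1, Id2, Nfil3 and Tcf3, for 2 of 3 Tcf12 windows and for 1 of 4 Zeb2 windows. Id3 was covered over 286 bases. At the outermost Zeb2 start 177 bases were covered, by a region of 787 bp. The window without a region was an internal Zeb2 start, and another window overlapping it was covered over 23 bases. The internal start nearest to the body of Zeb2 lay in the widest region of that gene, of 1365 bp at chr2:45109190-45110554. GC content ranged from 36.3% at an internal Tcf12 start to 81.7% at Nfil3, with a median of 62.0% over overlapped protein-coding windows.

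**Figure D1:**
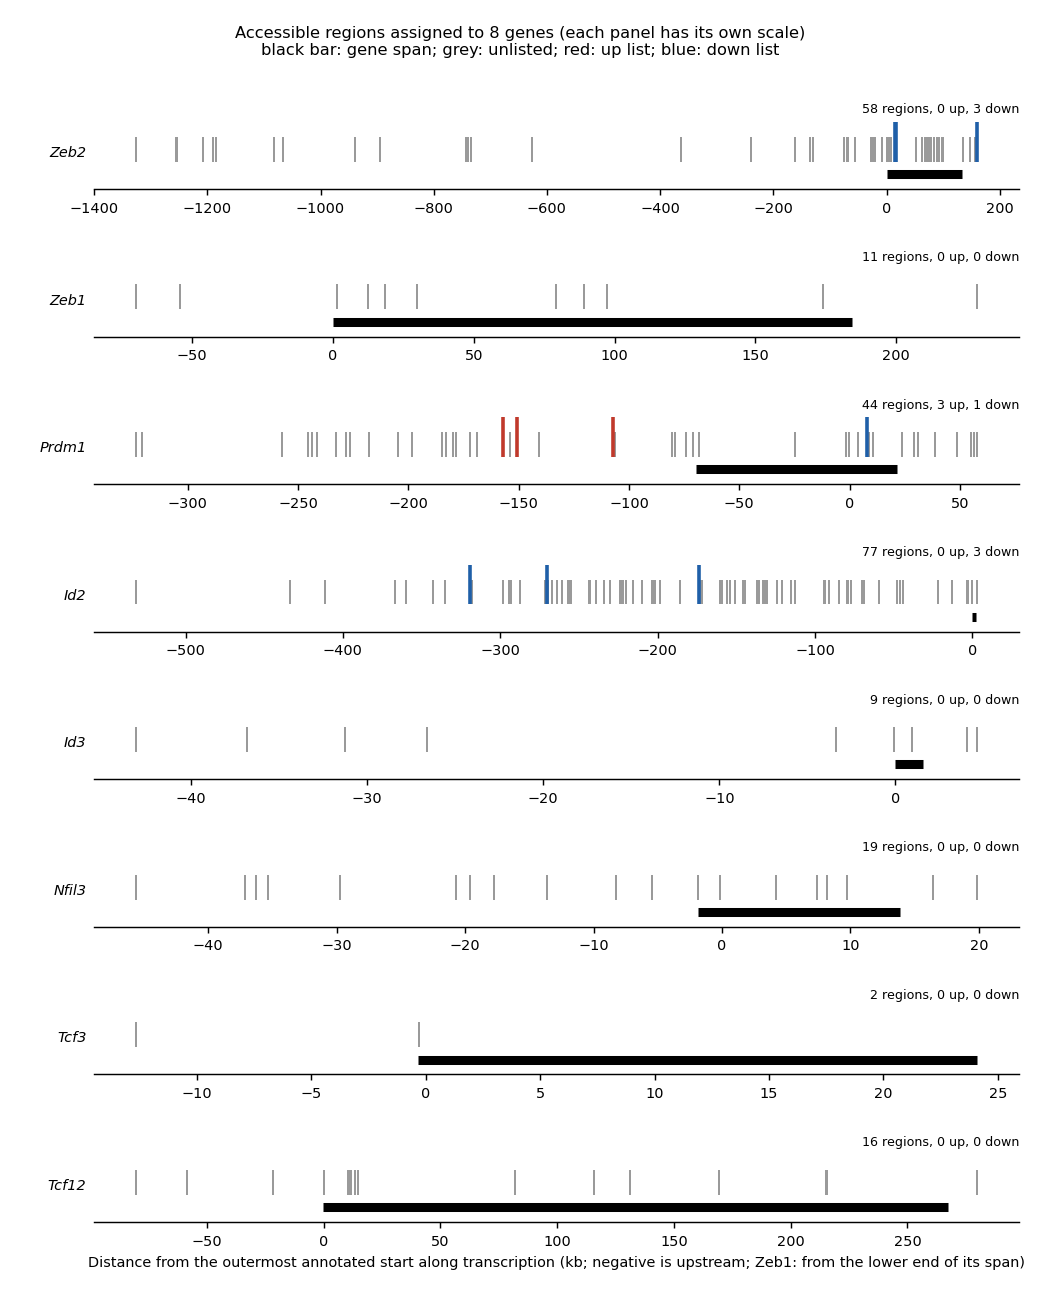
Position of each accessible region along the 8 genes, in kb from the outermost start in the promoter table (for Zeb1, from the lower end of its span), with each gene on its own scale. Tall blue marks are down regions, tall red marks up regions and grey marks unlisted regions; the 2 down regions inside Zeb2 are 903 bp apart and appear as 1 mark, and no listed region lies at a gene start.

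Zeb2, a repressor of transcription that drives the last maturation step, had 58 regions. Its 3 down regions lay in the gene and beyond its 3′ end. Only 23 of the 16384 genes had more regions by the rule used. When genes of any biotype competed, 26 of the 58 stayed with Zeb2. Inside the gene span (chr2:44983512-45117442) lay 23 regions, with 5 downstream and 30 upstream. The first down region, of 325 bp at chr2:45100782-45101106, and the second, of 462 bp at chr2:45102010-45102471, were neighbours in the list of all regions and 903 bp apart. They lay inside the gene, 9.33 kb and 8.04 kb from the nearest annotated start, and 16.5 kb and 15.2 kb from the outermost one. An unlisted region of 681 bp followed 452 bp after the second of them. The third down region, of 312 bp at chr2:44957237-44957548, lay 26.0 kb beyond the end of the gene. It was the last region assigned to Zeb2 on that side. The next listed region, 54.6 kb further, was also down and lay inside Gtdc1, the neighbouring gene. Between the third down region and the pair inside the gene were 18 unlisted regions over 143 kb.

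Upstream of Zeb2, in a stretch with noncoding genes but no other protein-coding gene, all 30 regions were unlisted, and they were sparser beyond 100 kb than nearer to the gene. Within 100 kb upstream there were 10 regions, from 100 to 200 kb there were 3, and from 200 to 600 kb there were 2. A further 15 lay between 600 and 1400 kb, the farthest 1330 kb from the gene. The largest empty stretch between neighbouring regions was 263 kb. The nearest up region to any of the 3 down regions of Zeb2 was 790 kb away.

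Zeb1, the paralog of Zeb2, had fewer and wider regions. It had 11, of which 8 lay inside the gene and 3 outside, and all were unlisted. Their median width was 663 bp, against 336 bp at Zeb2, with 162 to 3071 bp at the extremes. The region of 3071 bp, at chr18:5591146-5594216, overlapped the lower-numbered end of the gene and was the widest of the 236. The nearest listed region to Zeb1 was an up region 150 kb from the gene.

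Prdm1, which encodes Blimp-1, had 44 regions and was listed in both directions, on different sides of its start. In the gene table its span (chr10:44437174-44528558) reaches upstream of the start used here for the promoter, so each position is given from both. The down region, of 290 bp at chr10:44450806-44451095, lay inside the gene, 7.8 kb downstream of the start. Unlisted regions of 255 bp and 156 bp flanked it at 825 bp and 3819 bp. The widest region of Prdm1, of 1400 bp at chr10:44447344-44448743, lay 2 regions further into the gene and was unlisted. The promoter region itself, of 687 bp at chr10:44458450-44459136, was unlisted too.

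The 3 up regions of Prdm1 all lay upstream. The first, of 375 bp at chr10:44566014-44566388, was 37.5 kb from the span and 107 kb from the start. The second, of 476 bp at chr10:44609155-44609630, was 80.6 kb from the span and 151 kb from the start. The third, of 566 bp at chr10:44615563-44616128, was 87.0 kb from the span and 157 kb from the start. The last 2 were 5.93 kb apart with 1 unlisted region between them, and both lay within the span of the long noncoding RNA gene Gm35154. Between the down region and the first up region were 115 kb and 10 unlisted regions. The 17 regions more than 100 kb from the span, reaching to 254 kb, were unlisted. The 8 regions on the downstream side of the gene were unlisted as well.

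Id2, the ID protein that NK cells require, had 77 regions, almost all of them upstream. Only 8 of the 16384 genes had more by the rule used, and 58 of the 77 lay beyond 100 kb. When genes of any biotype competed, 5 of the 77 stayed with Id2. The gene is short (chr12:25093799-25096092), and 1 region lay in it, 1 downstream and 75 upstream over 532 kb. Within 100 kb upstream there were 17 regions, from 100 to 200 kb there were 22, from 200 to 300 kb there were 27, from 300 to 400 kb there were 6 and beyond 400 kb there were 3. The field of regions was thus densest between 200 and 300 kb from the gene. Each of the 3 stretches between 100 and 400 kb held 1 down region and 0 up regions.

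The down regions of Id2 were set among many unlisted ones. The first, of 956 bp at chr12:25269528-25270483, lay 173 kb upstream, and only 3 regions of the gene were wider. An unlisted region of 455 bp ended 154 bp before it. The second, of 224 bp at chr12:25366072-25366295, lay 270 kb upstream between unlisted regions of 380 bp and 210 bp. It was narrow for its list, since only 3.61% of down regions were narrower. The third, of 644 bp at chr12:25414933-25415576, lay 319 kb upstream. From the first to the third there were 146 kb, with 29 unlisted regions and 0 up regions between them. The second and the third fell within the span of the long noncoding RNA gene Gm36723. The widest region of Id2, of 1469 bp at chr12:25092303-25093771, ended 28 bp from the 3′ end of the gene, and the promoter was covered by a region of 933 bp. Both were unlisted.

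Id3, the related inhibitor of E proteins, had 9 regions, all within 42.8 kb of the gene and all unlisted. Its promoter region measured 365 bp, at chr4:136143586-136143950, and its widest region, of 732 bp, lay farthest from the gene. The nearest listed region was an up region 425 kb from the gene.

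The 2 E protein genes among the 8, Tcf3 and Tcf12, had 2 and 16 regions, none of them listed. Those of Tcf3, which encodes E2A, were of 855 bp at its promoter (chr10:80433503-80434357) and of 738 bp at 12.0 kb from the gene. As many or more regions were found at 77.7% of genes with any. At Tcf12, which encodes HEB, 12 of the 16 lay inside its span, and 7.16% of genes had as many regions or more. The widest, of 1722 bp at chr9:72110585-72112306, covered 2 of its 3 promoter windows, and 5 regions lay between 10.4 and 14.4 kb inside the gene. The nearest listed region to Tcf12 was an up region 688 kb away, assigned to Aqp9.

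Nfil3, the early lineage factor, had 19 regions within 43.6 kb, none of them listed. Its widest region, of 1953 bp at chr13:52980221-52982173, held the whole promoter window, and a region of 438 bp overlapped the upstream end of the gene span. Upstream lay 11 regions and downstream 2. Up regions lay close by at genes next to 2 of these loci. One was inside Auh, 51.4 kb from Nfil3, and another was 1.13 kb from Adamtsl5 and 58.8 kb from Tcf3. Both belong to the nearer gene by the rule.

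**Figure D2:**
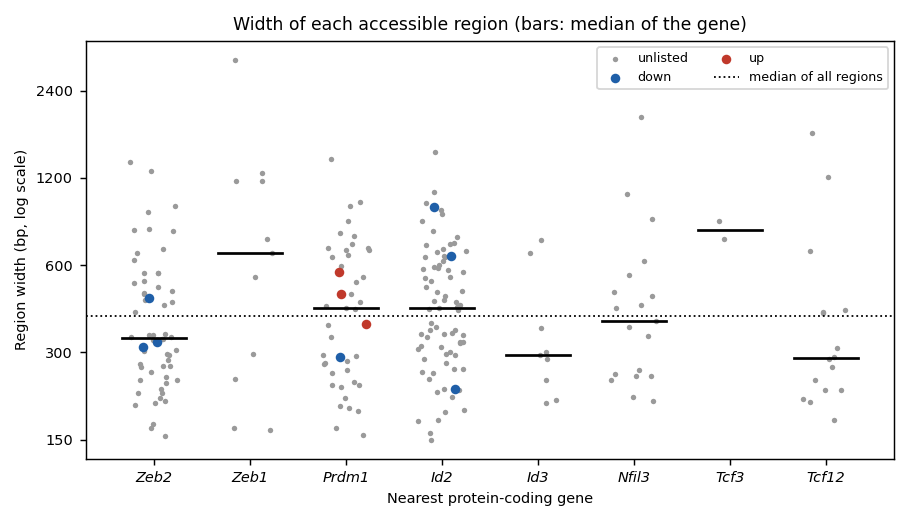
Width of each of the 236 accessible regions in bp (log scale) by nearest gene, with black bars at the median of each gene and a dotted line at the median of all 91266 regions (400 bp). The 10 listed regions (large points) lie between 224 and 956 bp, and the widest regions of every gene are unlisted.

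The 236 regions ranged from 150 to 3071 bp with a median of 369.5 bp, against 400 bp for all regions. The 7 down regions ranged from 224 to 956 bp with a median of 325 bp, below the median of 537 bp of the whole down list. The 3 up regions had a median of 476 bp, against 453 bp for the whole up list. Of the 236 regions, 13 were wider than 1000 bp and 0 of them were listed. In the series 1.62% of the 8374 regions of that width were listed.

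Because distant regions were common at these genes, list membership was also read by distance class. Inside genes, 3 of 61 regions of the 8 genes were down (4.92%) and 0 were up. The 3 down regions were a pair 903 bp apart inside Zeb2 and 1 inside Prdm1. Among all 55710 regions inside genes, 1.36% were down and 3.42% were up. Outside but within 10 kb, 0 of 18 were listed, against 4.4% up and 1.0% down. From 10 to 100 kb, 3 of 62 were up (4.84%) and 1 was down (1.61%), against 6.15% and 1.37%. Beyond 100 kb, 3 of 95 were down (3.16%) and 0 were up, against 2.69% and 5.62%. In the last 2 classes the down share was thus near that of all regions at the same distance. All 95 regions beyond 100 kb belonged to Id2 (58), Zeb2 (20) and Prdm1 (17). Within 1000 bp of an end of their gene lay 11 of the 236 regions, of which 0 were listed. Of the 15428 regions of the series so close to an end of their nearest gene, 1.94% were listed, so that a count of 0 is the usual case there.

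**Figure D3:**
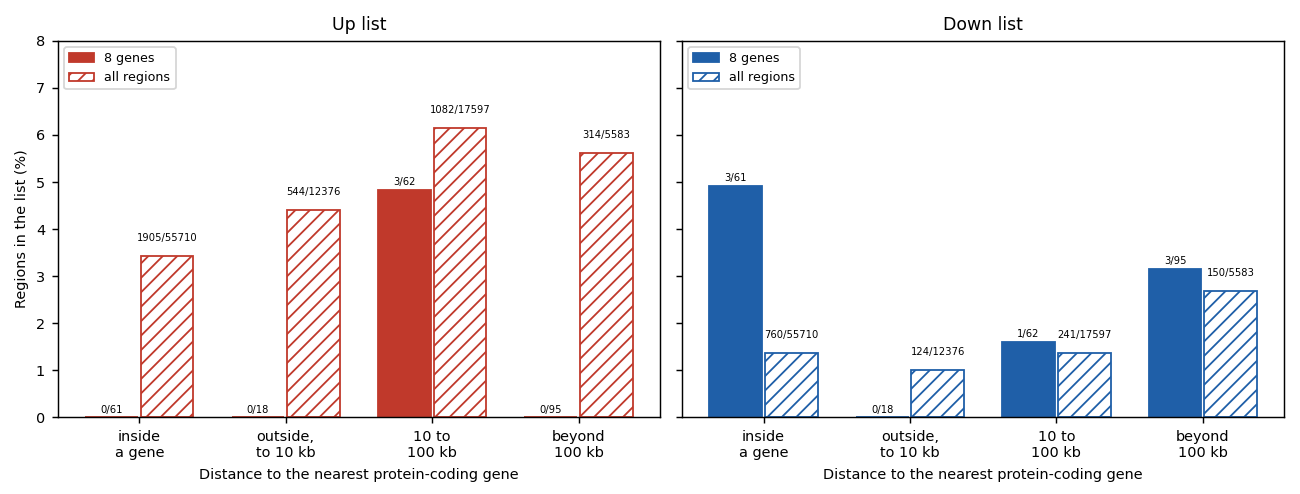
Percentage of regions in the up list (left) and the down list (right) by distance to the nearest protein-coding gene, for the 8 genes (filled) and for all regions (hatched), with the counts above each bar. The 3 up regions fall between 10 and 100 kb, and the down regions inside genes (3 of 61), between 10 and 100 kb (1 of 62) and beyond 100 kb (3 of 95).

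Other genes of the same pathway were read the same way, from a list of 34 genes by role. Together they had 822 regions, of which 17 were up (2.07%, 95% Wilson interval 1.3 to 3.29%) and 39 were down (4.74%, 3.49 to 6.42%). Here too the intervals cover the counting of regions only, and regions of the same gene are not independent. Down regions only were found at 12 of these genes, up regions only at 3, both at 4 and neither at 15. A down region was thus found at 16 of the 34 and an up region at 7, against 5.4% and 16.1% of all genes with a region, and both at 4, against 1.36%. As at the 8 genes, many of these genes have more regions than the median gene, and so more chances to be listed. Of the listed regions of the 34 genes, 17 of 56 were up (30.4%, 19.9 to 43.3%). Of those of the 8 genes, 3 of 10 were up (30.0%, 10.8 to 60.3%), all at Prdm1. The up share over the series was 75.1%. The list was drawn up with earlier results of these data known, so these counts are a description.

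By role, the 3 further genes of the E protein and ID family had 5 up (9.62%) and 0 down of 52 regions, against 4.21% up and 1.4% down over all regions. All 5 belonged to Tcf4 (46 regions), an E protein gene, and nothing was listed at the ID genes Id1 (4) and Id4 (2). The 16 further maturation factors had 11 up (2.06%) and 29 down (5.43%) of 534 regions. Tox, a factor needed for NK development, had 9 down and 2 up of 53. Irf2, which NK cells need to mature, had 3 down of 27, all inside the gene. Bcl6, a repressor that opposes Blimp-1 in lymphocytes, had 4 down of 23, and Bach2, which restrains effector genes, had 3 down and 1 up of 66. Klf2, which keeps lymphocytes quiescent and controls their traffic, had 2 down of 9. Runx3, Foxo1, Ikzf3 and Irf8 had 1 down region each. Gata3 (4 up, 2 down of 46) and Ets1 (3 up, 2 down of 79) were also listed in both directions, and Tox2 had 1 up of 14. Nothing was listed at the other 4 genes of this group: Tbx21 (11 regions), which encodes T-bet, Eomes (31), Irf4 (7) and Myb (14).

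Among 15 targets and markers of maturation, 10 of 236 regions were down (4.24%) and 1 was up (0.424%), against 1.4% and 4.21% over all regions. S1pr5, the sphingosine-1-phosphate receptor by which mature NK cells leave lymphoid tissue, had 1 down of 4. S1pr1, a receptor for the same ligand, had 3 down of 31. Cd226, which encodes the activating receptor DNAM-1, had 2 down of 20, and Myc had 2 of 74, 503 kb and 817 kb from the gene. Il7r, which encodes a receptor chain for interleukin-7 found on less mature NK cells, had 2 down of 4. Kit, which encodes the stem cell factor receptor, had the up region, 1 of 26. Nothing was listed at Gzmb (9 regions), Prf1 (6) and Socs1 (11), nor at Cx3cr1, Klrg1, Itgam, Cd27, Cxcr3 or Ly6c2, 6 genes of surface proteins with 51 regions between them.

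**Figure D4:**
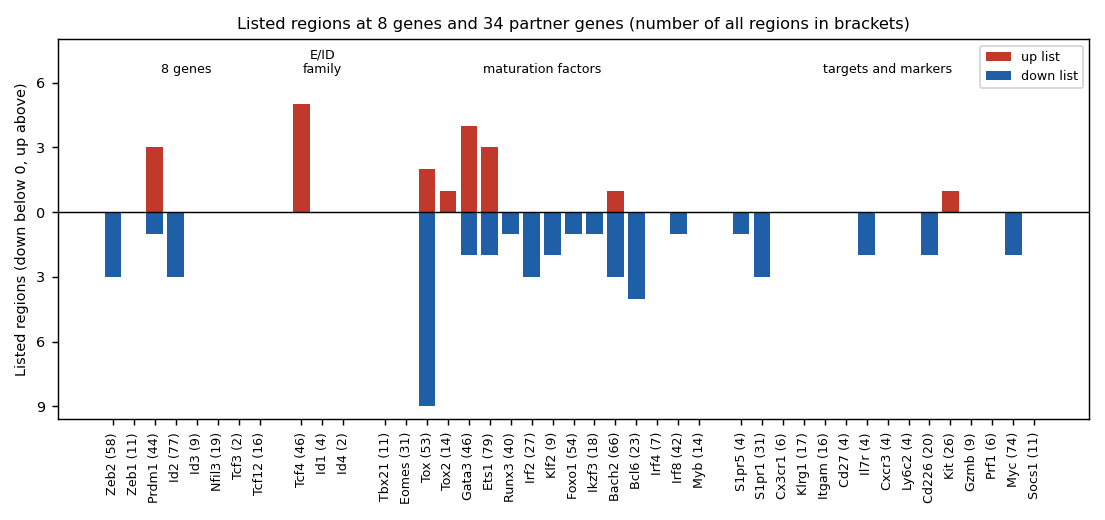
Number of regions in the up list (above 0) and the down list (below 0) at the 8 genes and at 34 partner genes by role, with the number of all regions of each gene in brackets. Zeb2 and Id2 have 3 down regions each, Prdm1 has 3 up and 1 down, and Tox has the most down regions shown (9).

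Genes with the numbers most like those of each listed gene were found by the distance between log2(number + 1) of regions, up regions and down regions. The nearest to Zeb2 were Mef2c (65 regions, 4 down), Cblb (59 regions, 2 down) and Rapgef1 (43 regions, 3 down). The nearest to Id2 were Mef2c, Myc (74 regions, 2 down) and Cblb. For Prdm1 they were Arhgap26 (53 regions, 3 up, 1 down), Dscam (36 regions, 3 up, 1 down) and Jun (44 regions, 4 up, 1 down). The likeness is of 3 numbers per gene over 1 deposited set of regions.

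The assignment of distant regions to these genes rests on the nearest-gene rule alone. When genes of any biotype competed, 72 of the 77 Id2 regions, 32 of the 58 Zeb2 regions and 31 of the 44 Prdm1 regions went to another gene. The 3 down regions of Zeb2 and the down region of Prdm1 stayed, while the 3 up regions of Prdm1 and the 3 down regions of Id2 went to long noncoding RNA genes or pseudogenes.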

How the data were processed

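ATAC-seq was done on 4 samples, 2 per IL-15 dose, all at 72 h; samples were grouped by the dose in their titles. The submitters' processing notes name BWA, ArchR, MACS2, HOMER 4.11.1 and build mm10, with no role or order. How samples were combined to call regions, the differential test and its threshold are not given in the sources used here. The tables deposited by the authors hold region positions and widths in bp, in 3 files, with 0 columns of values per sample; the sequencing depth is unknown. The planned edgeR test therefore could not be made.

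Starts in the list of all regions are 0-based and were raised by 1. Each of the 3845 up and 1275 down regions was then identical to 1 of the 91266 regions, and 0 were in both lists. Genes came from RefSeq (GRCm38.p6, 21883 protein-coding genes on the chromosomes used), and regions were given to the nearest gene span, ties to the nearer end. As a check of the build, 54.0% of protein-coding promoter windows met a region, against 4.9% and 5.0% after a shift of 100 kb either way. Exons and introns were not used here. The table of promoters gave strand and starts. Named regions are every listed region, the widest, the one nearest an end of the gene and the one at the promoter. The 3 genes most like each listed gene were named by a fixed distance, ties to the nearer gene length. The members and gene lists were chosen with earlier results of these data known, and no test was made over them. One gene of the partner list is not reported here. Shares have 95% Wilson intervals. The assignment was tested on simulated regions. Python 3.11.15, pandas 2.3.3 and scipy 1.17.1 were used.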

Additional observations from a re-analysis of the deposited data

How the results depend on the processing

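No paired analysis was possible because only positions were analysed, with no value for any sample. The dose test, its alternatives (DESeq2, no count filter, leaving out a replicate) and a stricter threshold on the authors' calls were not run for the same reason.

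Of 44 alternatives to the counts, 26 stayed within 1.5 times the reported number and 18 moved further. The 236 regions became 77 with the nearest gene of any biotype, 80 within the gene or 10 kb of it, 144 within 50 kb, 61 inside the gene and 114 when regions under the median width were left out. The 3 up regions became 0 with any biotype, within 10 kb and inside the gene, 1 within 50 kb, 5 within 100 kb (2 of them at Auh and Adamtsl5) and 0 without Prdm1. The 7 down regions became 4 with any biotype, 3 within 10 kb and inside the gene, 4 within 50 kb, 3 among wider regions, and 4 without Zeb2 or without Id2. In each case fewer, or in the 100 kb setting other, regions enter by construction. Matching the lists by overlap or measuring from the region's midpoint changed no count. Within 100, 1000 and 3000 bp of an end of their gene, 0 of 8, 11 and 19 regions were listed, against 1.25%, 1.94% and 2.92% of all regions at those distances, and 10 promoter windows in place of 11 counted as open when at least 150 of the 300 bases had to be covered. Without depth, narrow or weak regions cannot be told from regions with few reads.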
